A study of Rattus norvegicus with 9 samples.

Results

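Cytochromes P450 (Cyp), UDP-glucuronosyltransferases (Ugt), sulfotransferases (Sult) and glutathione S-transferases (Gst) were examined in rat prostates from sham, BPH and BPH+ghrelin rats. A gene was included if the RefSeq accession of its array probe mapped to a rat symbol that starts with Cyp, Ugt or Sult and a digit, or with Gst and a letter. This gave 115 genes with 132 probes, of 26905 genes or other features (30356 probes) on the array. They comprised 68 Cyp, 23 Gst, 12 Sult and 12 Ugt genes. The rule uses symbols only, although the set was proposed with earlier results of these data known.

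Male Sprague Dawley rats were 6 weeks old at purchase. Sham rats (3 arrays) underwent a sham operation and received corn oil and distilled water. BPH rats (3 arrays) were castrated, received dihydrotestosterone (3 mg/kg daily, subcutaneously) over 4 weeks and water by gavage, while BPH+ghrelin rats (3 arrays) received the same and oral ghrelin (20 nmol/kg daily) during the last 2 weeks. BPH and BPH+ghrelin thus shared castration and dihydrotestosterone, and the sham rats kept their testes, so that castration and androgen treatment cannot be told apart in comparisons with sham. The study states that prostates of 3 rats per group were used for the arrays, and p-values measure the spread between these samples only.

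Cytochromes P450 insert oxygen into drugs, steroids, fatty acids, retinoids and vitamin D, usually as the opening step of their breakdown or activation. Glucuronosyltransferases, sulfotransferases and glutathione transferases then attach a sugar acid, a sulfate or glutathione, which makes the products water-soluble and often ends hormone activity. In the prostate, such enzymes are known for local inactivation of androgens and for removal of reactive products of lipid oxidation.

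Quantities are log2 signals after quantile normalization over the 9 arrays, and a log2 fold change is the difference between the means of 3 arrays each. Levels of different genes are not set against each other, since probes differ in brightness. The median raw signal ranged from 40.9 (sham 2) to 133 (BPH 1), and 61.4% of all probes were well above background on sham 2, against 69.5% to 75.05% on the other arrays. The 3 BPH arrays were scanned with BPH+ghrelin 1, BPH+ghrelin 2 and 3 were scanned with sham 1 and 2, and sham 3 was scanned apart. BPH and sham shared no scan, so that a direct comparison of them cannot tell group from scan. A fit with scan as a block links them only through the BPH+ghrelin arrays. The signal of sham 3 was intermediate between sham 1 and 2 at 74.0% of 21477 probes, that of BPH 2 between BPH 1 and 3 at 71.8%, and that of BPH+ghrelin 2 at 69.4%. Whether RNA was mixed between samples of a group was not tested, and the p-values and n hold only if the 3 arrays of a group are separate samples. Without sham 3, BPH 2 and BPH+ghrelin 2, 0 of 66, 69 and 65 tested member genes passed limma's test in the 3 comparisons described below, as did 3, 0 and 2 of all features, while 12, 8 and 7 members had an unadjusted p under 0.05.

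The tissue label was borne out by the marker genes of prostate secretory epithelium, of which 13 of 14 were well above background on all 9 arrays. Of 12 hepatocyte genes, 7 were well above background on 0 of 9 arrays, including Alb, Fga and Cps1. Of the 115 enzyme genes, 53 were well above background on all 9 arrays, 25 on some and 37 on none. Glutathione transferases were the class most often measured, with 20 of 23 genes on all 9 arrays and 2 on none. Of the cytochromes P450, 28 of 68 were well above background on all arrays and 24 on none. The genes that were not well above background on any array included Cyp2e1, Cyp2c7, Cyp3a2 and Cyp7a1, which are known as liver enzymes, as well as Cyp24a1, the vitamin D catabolic enzyme. Sulfotransferases (6 of 12 on none, 2 on all) and glucuronosyltransferases (5 of 12 on none, 3 on all) were measured less completely.

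**Figure D1:**
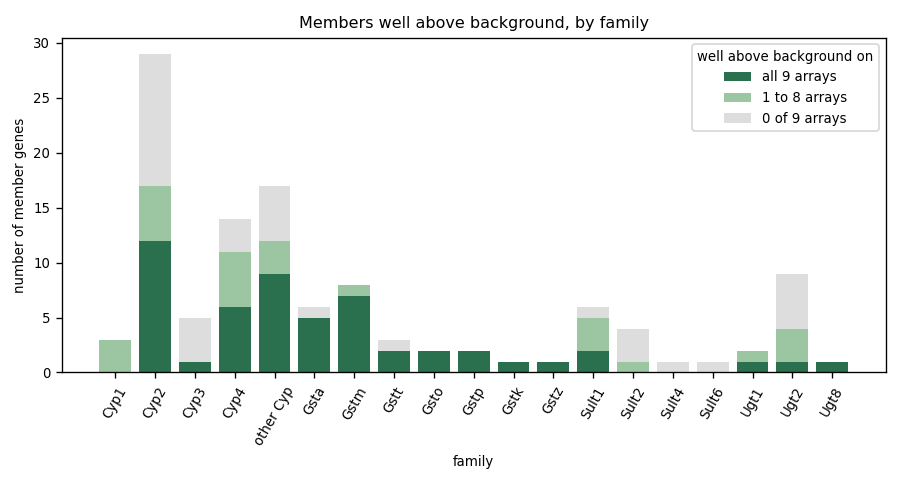
Number of member genes (vertical axis) in each enzyme family (horizontal axis) whose probe was well above background on all 9 arrays, on 1 to 8 arrays or on 0 of 9 arrays. All 8 Gstm genes were measured on at least some arrays, while 4 of 5 Cyp3 genes and 12 of 29 Cyp2 genes were measured on none.

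Testing required a signal well above background on 3 or more of the 6 arrays in a comparison, which held for 71 of the 115 genes in at least 1 comparison and for 63 in all 3 comparisons, while 44 were not tested. Differences were tested with limma, and an adjusted p under 0.05 after Benjamini-Hochberg adjustment over all genes tested was taken as a change. In BPH against sham, 8 of 66 tested members changed (12.1%), compared to 4.33% of all 19552 features tested. Of these, 2 rose (all features 2.15%) and 6 fell (2.18%). In BPH+ghrelin against BPH, 4 of 69 members changed (5.8%; all features 1.48%), of which 1 rose (0.496%) and 3 fell (0.987%). Among the falls was Sult1c2a, which was tested through BPH, the group where it was high. When all 6 arrays had to be well above background, 3 of 59 members changed (all features 1.48%). Compared to sham, 4 of 65 members changed in BPH+ghrelin (6.15%; all features 6.3%), of which 2 rose (3%) and 2 fell (3.3%). The median log2 fold change of the members was -0.16, -0.04 and -0.19 in these comparisons, against 0.04, 0.02 and 0.04 for all features. By superfamily, the median in BPH against sham was -0.29 for 36 tested Cyp genes (1 rose, 1 fell) and 0.15 for 21 Gst genes (1 rose, 3 fell).

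At least 2-fold differences depended on the background correction and on the filter for dim probes. Between BPH and sham, 11 members were higher in BPH (16.7%; all features 3.53%) and 8 lower (12.1%; 4.63%) by this size. Between BPH+ghrelin and BPH, 4 were higher (5.8%; all features 2.9%) and 7 lower (10.1%; 3.2%), and in BPH+ghrelin against sham 5 were higher (7.69%; 3.21%) and 8 lower (12.3%; 4.2%). With normexp background correction, which lifts dim values, these counts were 3 and 3, 0 and 2, and 1 and 2, beside 9, 4 and 5 members that passed the test (all features 5.18%, 2.03% and 6.43%). Members bright in a single group can pass the main filter. When all 6 arrays had to be well above background, the 2-fold counts were 7 and 7, 4 and 4, and 3 and 5 (54, 59 and 53 members tested). The ranges of the compared groups were fully separated (no overlap) for 12 higher and 18 lower members in BPH against sham (all features 17.1% and 14.2%), for 12 and 7 in BPH+ghrelin against BPH (19.8% and 19.3%), and for 9 and 16 in BPH+ghrelin against sham (17.5% and 12.8%). At an unadjusted p under 0.05 (limma) there were 32, 16 and 25 members (all features 26.5%, 21.1% and 23.7%). Without sham 1, 20 members passed the test in BPH against sham and 10 in BPH+ghrelin against sham, while the share of all features rose to 15.8% and 8.61%. These comparisons share arrays, so their counts are not independent of each other.

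**Figure D2:**
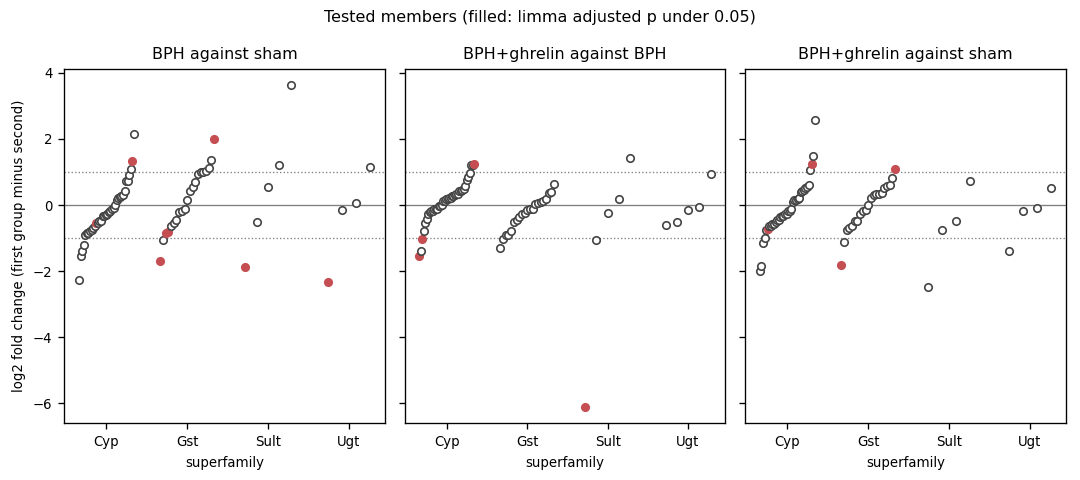
Log2 fold change (vertical axis, group named first minus group named second) of each tested member in the 3 comparisons, by superfamily. Dotted lines mark a 2-fold difference and filled points an adjusted p under 0.05 (limma). Most members lay within 2-fold, and Sult1c2a in BPH+ghrelin against BPH was the lowest point at -6.12, a value that rests on signals near background (-1.84 with normexp background correction).

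In total, 11 genes changed in at least 1 comparison and 5 of them in 2 comparisons. They were Gstm1, Gsta4, Gsta6 and Gstp3 (glutathione transferases), Sult1b1 and Sult1c2a (sulfotransferases), Ugt2b10 (a glucuronosyltransferase), and Cyp2j3, Cyp2s1, Cyp4a8 and Cyp4v3 (cytochromes P450). Normexp gave smaller differences for dim probes, and is given where it moved a called difference by more than 1.5 times.

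**Figure D3:**
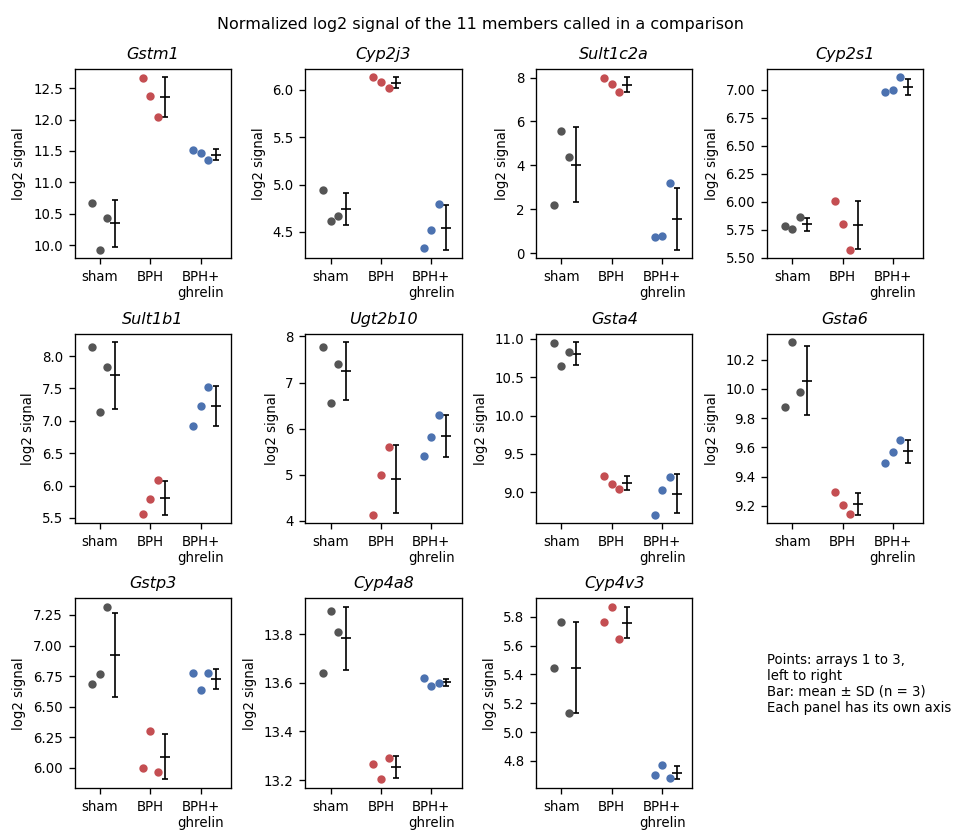
Normalized log2 signal (vertical axis, separate scale for each gene) of the 11 members that changed in at least 1 comparison, with 1 point per array for sham, BPH and BPH+ghrelin and the mean ± SD of 3 arrays beside them. Gstm1, Cyp2j3 and Sult1c2a were highest in BPH, Gsta4 was lower in both dihydrotestosterone-treated groups, and Cyp2s1 was highest on the 3 BPH+ghrelin arrays.

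Glutathione transferases of the mu class detoxify epoxides and other electrophiles. Their 8 measured genes lie side by side on chromosome 2 in GRCr8, in a run of 9 protein-coding genes from Gstm5 to Gstm4 that holds only Gstm genes. All 8 were higher in BPH than in sham, with a median log2 fold change of 1.03 (range 0.54 to 2.01), but only Gstm1 passed the test, and only Gstm1, Gstm2 and Gstm4 showed no overlap between the arrays of both groups (all features 2.15% called higher and 17.1% higher without overlap). The direction of all 8 was the same under each of 17 alternative settings, including 75th percentile scaling (median 0.98), although only 7 were tested with the filter on all 6 arrays. The median was 0.58 with scan as a block and 0.79 to 1.46 with 1 array left out. The promoters of the pair with the largest differences among those without overlap are shown because all 8 neighbours were higher in BPH. They comprise the 250 bases before the start site (RefSeq, GRCr8), chr2:198343384-198343633 for Gstm1 and chr2:198316918-198317167 for Gstm2, both on the minus strand and written in gene direction. Capitals mark matches on either strand to 3 motifs: TGACNNNGC, the core of antioxidant response elements, GCGTG, the core of xenobiotic response elements, and AGAACA, a hexamer of androgen receptor binding sites. No 2 matches overlapped in the promoters printed here.
Gstm1: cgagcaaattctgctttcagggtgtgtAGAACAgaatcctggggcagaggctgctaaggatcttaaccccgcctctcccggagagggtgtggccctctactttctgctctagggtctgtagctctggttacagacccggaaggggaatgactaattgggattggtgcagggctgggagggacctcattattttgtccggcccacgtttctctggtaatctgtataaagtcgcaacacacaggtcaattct
Gstm2: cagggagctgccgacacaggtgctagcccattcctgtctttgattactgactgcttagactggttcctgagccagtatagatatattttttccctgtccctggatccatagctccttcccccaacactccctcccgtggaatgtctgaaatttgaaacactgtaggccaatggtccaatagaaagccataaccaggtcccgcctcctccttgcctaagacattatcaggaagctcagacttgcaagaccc
Among 33469 promoters of this length, TGACNNNGC was found in 10.1%, GCGTG in 25.9% and AGAACA in 17.5%. Gstm1 held 1 AGAACA, starting 223 bases before the start site, and Gstm2 held none of these letters. Of 7 Gstm genes with a promoter in the table, 2 held TGACNNNGC, 2 held GCGTG and 2 held AGAACA. Over all members, 96 of 115 genes had a promoter, of which 9 held TGACNNNGC, 23 held GCGTG and 24 held AGAACA.

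Gstm1 was at 10.67, 9.92 and 10.44 in sham, at 12.67, 12.37 and 12.04 in BPH, and at 11.51, 11.47 and 11.35 in BPH+ghrelin. The 3 groups did not overlap, with BPH highest and sham lowest. Gstm1 rose 4.04-fold in BPH compared to sham (log2 fold change 2.01, SE 0.22, adjusted p 0.00453, limma), and the call was kept when any of the 6 arrays was left out. With scan as a block this call ended (1.96, adjusted p 0.452). Gstm1 also rose in BPH+ghrelin compared to sham (1.10, SE 0.22, adjusted p 0.0293). That call ended without sham 3 or any of the 3 BPH+ghrelin arrays (adjusted p 0.0705 to 0.121) and with replicate number (0.0518) or scan (0.235) as a block. BPH+ghrelin against BPH gave -0.92 (SE 0.22, adjusted p 0.086), which passed the test with only the 6 arrays compared (adjusted p 0.0327).

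Gstm2 was at 9.95, 8.98 and 9.62 in sham, 10.76, 10.65 and 10.53 in BPH, and 10.50, 10.23 and 9.65 in BPH+ghrelin. The BPH arrays lay above those of both other groups, while sham and BPH+ghrelin overlapped. The log2 fold change in BPH against sham was 1.13 (SE 0.29, adjusted p 0.0656; 0.0279 without sham 1). For Gstm4 it was 0.95 (SE 0.25, adjusted p 0.0707; 0.0498 without BPH 3), and a further Gstm4 probe gave 0.82.

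Gstm5, Gstm6, Gstm6l and Gstm7 differed from Gstm1 in their spread within groups. Gstm6l was at 6.56, 9.87 and 8.51 in sham and at 10.51, 9.80 and 7.67 in BPH, so that the arrays of both groups overlapped over most of their range. Sham 2 and BPH 1 were the highest arrays of their groups in each of these 4 genes, whereas Gstm1 and Gstm2 were lowest in sham 2. Between the highest and the lowest sham array, the range was 3.31 for Gstm6l and 2.16 for Gstm6, compared to 0.75 for Gstm1. Their log2 fold changes of 1.00 to 1.35 in BPH against sham did not pass the test (adjusted p 0.123 for Gstm5, 0.507 for Gstm6l), except that Gstm5 passed it without sham 2 (0.0333). With 1 array left out, they ranged from 0.14 (without sham 1) to 1.85 (without BPH 3) for Gstm6l, from 0.50 (without BPH 1) to 1.66 (without BPH 3) for Gstm7, from 0.84 to 2.00 for Gstm6, and from 0.68 to 1.42 for Gstm5. Gstm3 gave 0.54 (adjusted p 0.197), with 0.29 to 0.74 when 1 array was left out and 0.07 with normexp.

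Compared to BPH, all 8 Gstm genes were lower in the BPH+ghrelin group (median -0.66), and 0 of 8 passed the test (limma, all features 1.48%). An unadjusted p under 0.05 was reached by 1 of them (all features 21.1%). Without BPH 1 the median was -0.38 and 7 of 8 were lower. Gstm4 was near 0 (-0.12), its other probe was higher by 0.51, and its direction turned in 4 alternative settings. The sequences of mu class genes are alike, so that signals of neighbours may be shared between probes. This was not tested, as probe sequences were not used here.

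**Figure D4:**
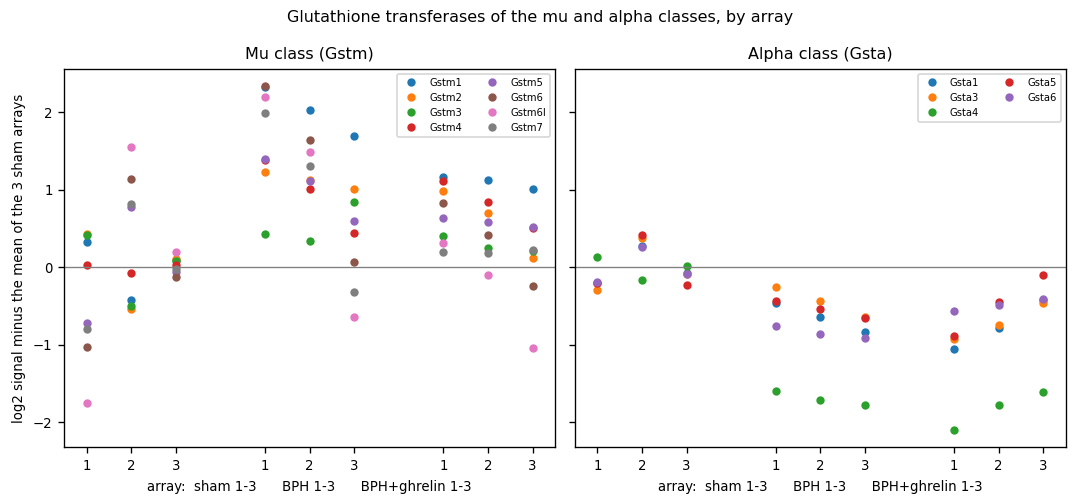
Log2 signal minus the mean of the 3 sham arrays (vertical axis) for each measured Gstm and Gsta gene on each of the 9 arrays (horizontal axis, arrays 1 to 3 of each group). Gstm1 lay above the sham mean on all 6 arrays of dihydrotestosterone-treated rats and Gsta4 below it, whereas Gstm6l spread by 3.31 within sham.

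Alpha class transferases act on lipid peroxides and steroid isomers, and Gsta4 is known for conjugating 4-hydroxynonenal, a toxic product of lipid oxidation. Of 6 genes, Gsta2 was not well above background on any array, and the other 5 were all lower in BPH than in sham (median -0.64) and in BPH+ghrelin than in sham (median -0.71). Gsta4 and Gsta6 passed the test in the former (all features 2.18% called lower) and Gsta4 in the latter comparison (3.3%). For BPH against sham, this direction of all 5 was the same under each alternative setting, but the median was only -0.22 with scan as a block. The Gsta4 promoter is shown since Gsta4 gave the smallest adjusted p of all members. It covers chr8:87947015-87947264 (GRCr8, plus strand), marked as above.
Gsta4: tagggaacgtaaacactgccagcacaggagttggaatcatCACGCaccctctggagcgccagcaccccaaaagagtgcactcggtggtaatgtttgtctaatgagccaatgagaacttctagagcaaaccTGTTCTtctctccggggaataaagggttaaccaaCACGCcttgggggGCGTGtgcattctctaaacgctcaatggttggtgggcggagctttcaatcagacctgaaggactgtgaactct
This stretch held GCGTG or its reverse complement at 3 places (210, 86 and 73 bases before the start site) and the reverse complement of AGAACA at 1 place (120 bases before it), but no TGACNNNGC. Gsta1, Gsta3 and Gsta6 lie on chromosome 9, away from Gsta4 and Gsta5 on chromosome 8.

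Gsta4 was at 10.94, 10.65 and 10.83 in sham, 9.22, 9.10 and 9.04 in BPH, and 8.71, 9.03 and 9.20 in BPH+ghrelin. All 6 arrays of castrated rats lay below the 3 sham arrays, and those of BPH and BPH+ghrelin overlapped. Gsta4 fell 3.22-fold in BPH (log2 fold change -1.69, SE 0.16, adjusted p 0.00209) and 3.54-fold in BPH+ghrelin compared to sham (-1.83, SE 0.16, adjusted p 0.000871; limma). Both calls were kept without any single array. Within the scan that held sham 1 and 2 and BPH+ghrelin 2 and 3, the difference was -1.68, and with scan as a block the call against sham was kept in BPH+ghrelin (adjusted p 0.0302) but not in BPH (-1.27, adjusted p 0.369).

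Gsta6 was at 9.87, 10.32 and 9.98 in sham, 9.30, 9.20 and 9.15 in BPH, and 9.49, 9.57 and 9.65 in BPH+ghrelin. The groups did not overlap, with BPH+ghrelin between the others. Gsta6 fell in BPH (-0.84, SE 0.14, adjusted p 0.0212), a call that ended without sham 3, BPH 2 or BPH 3 (adjusted p 0.0706 to 0.117) or with only the 6 arrays compared (0.0876). Gsta1 (-0.64, adjusted p 0.105) and Gsta5 (-0.54, adjusted p 0.194) did not overlap between BPH and sham but did not pass the test. Of all features, 14.2% were lower without overlap there. With 1 array left out, Gsta5 ranged from -0.66 to -0.33. Gsta3 gave -0.44 (adjusted p 0.218, -0.59 to -0.25 with 1 array left out), and its probes disagreed in BPH+ghrelin against sham (-0.71 and 0.96).

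The pi, zeta and theta classes gave 1 further change. Gstp3 was at 6.69, 6.76 and 7.31 in sham, 6.00, 6.30 and 5.97 in BPH, and 6.77, 6.63 and 6.77 in BPH+ghrelin. BPH arrays lay below those of both other groups, which overlapped. Gstp3 fell in BPH compared to sham (-0.83, SE 0.19, adjusted p 0.0486), just under the threshold, and the call ended without sham 2, sham 3 or any BPH array (adjusted p 0.0514 to 0.135), with only the 6 arrays compared (0.132) or with no filter (0.0703). With normexp it was -0.46. In BPH+ghrelin against BPH it gave 0.64 (adjusted p 0.121; 0.0362 with only the 6 arrays compared).

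Gstp1, the transferase best known from human prostate, was stable in sham at 9.68, 9.68 and 9.66, at 9.70, 9.42 and 9.24 in BPH, and at 9.29, 8.80 and 7.53 in BPH+ghrelin. Its difference between BPH+ghrelin and sham (-1.13, SE 0.39, adjusted p 0.125) was -0.62 without BPH+ghrelin 3, and the other 2 BPH+ghrelin arrays also lay below all sham arrays. Gstz1, an isomerase of tyrosine breakdown, was at 9.37, 10.61 and 9.82 in sham and at 8.90, 8.83 and 8.94 in BPH (-1.05, SE 0.27, adjusted p 0.0702). Without sham 2 the Gstz1 difference was -0.70 with an adjusted p of 0.0489, and without sham 1 it was -1.33 (adjusted p 0.0186). Gstt1 (0.42 in BPH and 0.53 in BPH+ghrelin against sham, adjusted p 0.131 and 0.0769), Gstt2, Gsto1, Gsto2 and Gstk1 did not pass the test in any comparison.

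Sulfotransferases transfer sulfate to phenols, hormones and steroids. Of 12 genes, 5 were tested in BPH against sham, where Sult1b1 fell (all features 2.18%). In BPH+ghrelin against BPH, 5 were tested and Sult1c2a was called lower (all features 0.987%). Sult1b1, which sulfates thyroid hormones and small phenols, was at 8.13, 7.13 and 7.83 in sham, 5.56, 5.80 and 6.08 in BPH, and 6.92, 7.23 and 7.53 in BPH+ghrelin. BPH arrays lay below all others, and BPH+ghrelin overlapped with sham. Sult1b1 fell 3.69-fold in BPH compared to sham (-1.89, SE 0.28, adjusted p 0.0138), and the difference in BPH+ghrelin against BPH was 1.41 (SE 0.28, adjusted p 0.0546; 0.0233 with only the 6 arrays compared and 0.0434 to 0.049 in 5 other settings). Its other probe gave -1.92 and 1.42. The call in BPH ended without sham 3 (adjusted p 0.0676), without BPH 2 (0.0811) or with only the 6 arrays compared (0.0561), and the difference was -1.13 with normexp.

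Sult1c2a belongs to the Sult1c genes, which act on phenols and aromatic hydroxylamines. Its promoter is printed because its signal differed most between BPH and BPH+ghrelin without normexp, and covers chr9:7103203-7103452 (GRCr8, minus strand), marked as above.
Sult1c2a: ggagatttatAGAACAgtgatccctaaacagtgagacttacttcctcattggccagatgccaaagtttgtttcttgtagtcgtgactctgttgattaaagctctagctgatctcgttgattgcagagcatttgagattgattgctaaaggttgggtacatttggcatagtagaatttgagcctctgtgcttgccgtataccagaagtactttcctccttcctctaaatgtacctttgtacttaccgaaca
It held 1 AGAACA, 240 bases before the start site, and neither of the other 2 motifs. Sult1c2a was at 2.20, 5.56 and 4.36 in sham, at 7.99, 7.71 and 7.33 in BPH, and at 0.71, 0.77 and 3.17 in BPH+ghrelin. Its probe stood well above background on 2 sham, 3 BPH and 1 BPH+ghrelin arrays. It was therefore tested through BPH, the group where it was high, it was not tested with the filter on all 6 arrays, and the size of the difference depends on values near background. Sult1c2a passed the test in BPH+ghrelin against BPH (-6.12, SE 0.90, adjusted p 0.0256), and without it 3 members changed in this comparison. The difference was -1.84 with normexp background correction and -3.63 with its other probe. The call ended without BPH 1, BPH 2, BPH+ghrelin 1 or BPH+ghrelin 2 (adjusted p 0.0687 to 0.147). In BPH against sham, Sult1c2a was higher by 3.64 (SE 0.90, adjusted p 0.0606) without overlap, and passed the test without sham 1 (0.0494), without sham 2 (0.0421), with the deposited matrix (0.0285), with the mean of both probes (0.0338) or with normexp (0.00525), which gave only 1.47. In BPH+ghrelin against sham it gave -2.48 (adjusted p 0.141; 0.0388 without sham 1). Its neighbours Sult1c2 (well above background on 1 array) and Sult1c3 (on none) were not tested.

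Other sulfotransferases did not pass the test. Sult1a1, the main phenol sulfotransferase, was at 9.23, 10.04 and 9.41 in sham, 9.28, 9.09 and 8.78 in BPH, and 8.46, 8.77 and 9.18 in BPH+ghrelin. Its log2 fold change was -0.76 (adjusted p 0.13) in BPH+ghrelin against sham, without overlap. Sult1d1, which neighbours Sult1b1 on chromosome 14 and sulfates catecholamines in rodents, was at 5.29 to 5.62 on all 6 arrays of castrated rats and at 5.61, 3.45 and 5.37 in sham, so that only sham 2 stood apart. Sult2a6, a hydroxysteroid sulfotransferase, stood well above background on each BPH array but only on 1 sham and 1 BPH+ghrelin array.

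Among glucuronosyltransferases, 4 of 12 genes were tested in BPH against sham, of which 1 fell (all features 2.18%). Ugt2b10, of the subfamily that conjugates steroids and bile acids, was at 7.78, 6.55 and 7.41 in sham, 4.14, 4.99 and 5.59 in BPH, and 5.40, 5.81 and 6.31 in BPH+ghrelin. Sham arrays lay above all others, and BPH overlapped with BPH+ghrelin. Ugt2b10 fell 5.06-fold in BPH compared to sham (-2.34, SE 0.44, adjusted p 0.0313), a call that ended without sham 3, BPH 1 or BPH 2 (adjusted p 0.0578 to 0.128) or with only the 6 arrays compared (0.0895). With normexp the difference was -1.11. In BPH+ghrelin it was different from sham by -1.40 (SE 0.44, adjusted p 0.1; 0.0472 without sham 2), without overlap. Of the other 8 Ugt2 genes, 5 were well above background on no array, and Ugt2b15, Ugt2b35 and Ugt2b37 only on 3, 1 and 1 arrays.

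Ugt8 makes galactosylceramide, a lipid of myelin. It was at 8.22, 6.63 and 7.79 in sham, 8.49, 8.67 and 8.89 in BPH, and 7.98, 8.08 and 8.16 in BPH+ghrelin. BPH arrays lay above those of both other groups, which overlapped, and the log2 fold change was 1.14 (SE 0.36, adjusted p 0.102) in BPH against sham and -0.61 (adjusted p 0.354; 0.0409 with only the 6 arrays compared) in BPH+ghrelin against BPH. Without sham 2 the former was 0.68 (adjusted p 0.0708), and without sham 1 it was 1.48 (adjusted p 0.0278). Ugt1a6, which conjugates planar phenols, ranged from 11.63 to 12.15 over the 9 arrays with its brightest probe. A dimmer Ugt1a6 probe was at 6.88, 5.84 and 6.54 in sham, 7.21, 7.01 and 6.56 in BPH, and 6.17, 6.09 and 5.92 in BPH+ghrelin. It gave 0.51 in BPH against sham and -0.86 in BPH+ghrelin against BPH. Ugt1 transcripts share exons, and signals of Ugt1a6 and Ugt1a9 may not be separable.

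Among the cytochromes P450, 36 of 68 genes were tested in BPH against sham, of which Cyp2j3 rose (all features 2.15%) and Cyp4a8 fell (2.18%). Cyp2j3, an epoxygenase of arachidonic acid, was at 4.94, 4.61 and 4.67 in sham, 6.13, 6.08 and 6.02 in BPH, and 4.33, 4.52 and 4.80 in BPH+ghrelin. BPH arrays lay more than 1 log2 unit above all others, and sham and BPH+ghrelin overlapped. Cyp2j3 rose 2.52-fold in BPH compared to sham (1.34, SE 0.15, adjusted p 0.00507), and this call was kept without any single array. With scan as a block it ended (1.63, adjusted p 0.308). Cyp2j3 fell 2.89-fold in BPH+ghrelin compared to BPH (-1.53, SE 0.15, adjusted p 0.0113). That call ended without BPH 1, BPH 2 or BPH+ghrelin 2 (adjusted p 0.051 to 0.109) and with replicate number (0.0605) or scan (0.122) as a block. Both comparisons use the same BPH arrays. The other probe gave 2.43 and -2.04, and with normexp the differences were 0.46 (adjusted p 0.011) and -0.56 (0.0151). Of its relatives, Cyp2j10 gave -1.39 in BPH+ghrelin against BPH (adjusted p 0.215), where it was well above background on 3 BPH arrays but only 1 BPH+ghrelin array, so that the size is uncertain (-1.94 to -0.83 with 1 array left out and -0.18 with normexp). Cyp2j4 did not pass the test, and its probes disagreed in BPH against sham (-0.35 for the brighter and 0.48 for the dimmer). In BPH+ghrelin against BPH they gave -0.22 and -0.75.

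Cyp2s1, which is known from epithelia outside the liver and acts on retinoids and lipids, was at 5.78, 5.75 and 5.86 in sham, 6.00, 5.80 and 5.57 in BPH, and 6.98, 7.00 and 7.11 in BPH+ghrelin. It rose 2.36-fold in BPH+ghrelin compared to BPH (1.24, SE 0.14, adjusted p 0.0147) and 2.35-fold compared to sham (1.23, SE 0.13, adjusted p 0.00287). The latter call was kept without any single array but ended with scan as a block (adjusted p 0.0696). The former ended without BPH 2, BPH+ghrelin 2 or BPH+ghrelin 3 (adjusted p 0.0526 to 0.115). Within scans, BPH+ghrelin 1 lay 1.19 above the BPH mean, and BPH+ghrelin 2 and 3 lay 1.29 above sham 1 and 2. The other 2 Cyp2s1 probes did not show this rise, with -0.05 and 0.02 in BPH+ghrelin against BPH, so that the change belongs to 1 of 3 probes, and both calls ended when the probes were averaged (0.40, adjusted p 0.126, and 0.30, adjusted p 0.174). With normexp the differences were 0.66 and 0.66.

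The other Cyp2 genes named here did not pass the test. Cyp2a1, a steroid and drug hydroxylase, was at 4.37, 4.63 and 4.71 in BPH and at 5.40, 5.83 and 6.08 in BPH+ghrelin (1.21, SE 0.29, adjusted p 0.0791; 0.0264 with only the 6 arrays compared). Cyp2b15 gave 0.98 (SE 0.21, adjusted p 0.0646; 0.0414 with only the 6 arrays compared) and Cyp2b3 0.56 (adjusted p 0.354) in the same comparison. Over all settings fitted, the smallest values there were 0.39 for Cyp2a1, 0.38 for Cyp2b15 and 0.21 for Cyp2b3. All 3 genes were lower in BPH than in sham (-0.53 to -0.85), with adjusted p of 0.141 to 0.162, and Cyp2a1 and Cyp2b3 passed the test in BPH against sham without sham 1 (0.0338 and 0.0303). With 1 array left out, these differences ranged from -1.06 to -0.52 for Cyp2a1 and from -1.19 to -0.49 for Cyp2b3, smallest without sham 2.

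Cyp4 enzymes oxidise the end of fatty acid chains and inactivate leukotrienes. Of 10 tested genes, 7 were lower in BPH than in sham (median -0.44, all features 0.04), and 1 passed the test (all features 2.18% called lower). Cyp4a8, at 13.64, 13.90 and 13.81 in sham, 13.27, 13.20 and 13.29 in BPH, and 13.62, 13.59 and 13.60 in BPH+ghrelin, showed no overlap between groups. It fell in BPH compared to sham (-0.53, SE 0.11, adjusted p 0.0409), but its other probe was higher by 1.36, and the mean of both gave 0.41. The call ended without sham 2, sham 3 or any BPH array (adjusted p 0.0509 to 0.188), with only the 6 arrays compared (0.132), with no filter (0.0576) or with 75th percentile scaling (-0.84, 0.0582).

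Cyp4v3, a fatty acid hydroxylase, was at 5.45, 5.77 and 5.13 in sham, 5.76, 5.87 and 5.65 in BPH, and 4.70, 4.77 and 4.68 in BPH+ghrelin. BPH+ghrelin arrays lay below all others. Cyp4v3 fell in BPH+ghrelin compared to BPH (-1.04, SE 0.17, adjusted p 0.0316) and compared to sham (-0.73, SE 0.17, adjusted p 0.0416), and its other probe gave -1.97 and -1.05. Both calls ended without any of the 3 BPH+ghrelin arrays, the former also without BPH 1 or BPH 2, and the latter also without sham 1 (adjusted p 0.0595 to 0.181). With normexp the differences were -0.28 (adjusted p 0.106) and -0.17 (0.238), and the call against sham also ended with only the 6 arrays compared (0.0877) or with no filter (0.0644).

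Cyp4a2, Cyp4f5, Cyp4f17 and Cyp4f18 differed at least 2-fold between sham and a castrated group, and in each the sham arrays were spread. Cyp4a2 was at 3.29, 7.32 and 5.35 in sham and at 3.21, 3.25 and 2.67 in BPH (-2.28, SE 0.88, adjusted p 0.155), and without sham 2 the difference was -1.28, but without sham 1 it was -3.29 (adjusted p 0.0229). Cyp4f17 was at 6.03, 0.81 and 5.32 in sham and at 6.75, 6.58 and 6.56 in BPH+ghrelin. Its log2 fold change of 2.58 (adjusted p 0.223) was 0.96 without sham 2, on which the probe was not well above background. Cyp4f5 was at 7.25, 8.79 and 7.88 in sham and at 6.38, 6.15 and 5.90 in BPH+ghrelin (-1.83, SE 0.48, adjusted p 0.0627; 0.0389 without sham 1). Cyp4f18 gave -1.22 (adjusted p 0.0946; 0.0278 without sham 1) in BPH and -1.01 (adjusted p 0.143; 0.0497 without sham 1) in BPH+ghrelin against sham, without overlap, and without sham 2 these were -0.86 and -0.65. Over all settings fitted, the smallest differences in these comparisons were -0.64 for Cyp4a2, 0.69 for Cyp4f17, -1.14 for Cyp4f5, and -0.29 and -0.24 for Cyp4f18. Cyp4x1 gave 1.10 in BPH against sham (adjusted p 0.146), but was well above background on only 1 sham array, and its difference ranged from 0.66 to 1.58 with 1 array left out and was 0.09 with normexp.

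Of 17 cytochromes P450 outside the Cyp1 to Cyp4 families, most of which act on steroids, sterols, retinoids or vitamin D (Cyp20a1 has no such known role), 10 were tested. Of these, 0 passed the test in any of the 3 comparisons (limma, all features 4.33%, 1.48% and 6.3%). An unadjusted p under 0.05 was reached by 5, 2 and 5 of the 10 (all features 26.5%, 21.1% and 23.7%). Cyp17a1, the hydroxylase and lyase that leads to androgens, was at 3.82, 4.50 and 4.53 in sham, 3.42, 3.49 and 3.19 in BPH, and 3.85, 3.75 and 3.31 in BPH+ghrelin. It was lower in BPH than in sham without overlap (-0.91, SE 0.23, adjusted p 0.0627; 0.0183 without sham 1 and 0.0426 with 75th percentile scaling), but the difference was only -0.15 with normexp. Cyp21a1, a hydroxylase of corticoid synthesis, gave -0.63 (adjusted p 0.0731), also without overlap. Cyp11b3, of the corticoid hydroxylases, was at 5.47, 8.25 and 6.66 in sham, 5.32, 5.24 and 5.14 in BPH and 5.95, 6.45 and 6.96 in BPH+ghrelin. Its differences of -1.56 in BPH against sham and 1.21 in BPH+ghrelin against BPH did not pass the test (adjusted p 0.157 and 0.292), but the former did without sham 1 (0.027) and the latter with only the 6 arrays compared (0.0405). Without sham 2 the former was -0.83, and without sham 1 it was -2.22. A dimmer Cyp11b3 probe gave only -0.22 in BPH against sham and 0.56 in BPH+ghrelin against BPH. The probes disagreed in BPH+ghrelin against sham (-0.34 and 0.34).

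Cyp7b1, which hydroxylates oxysterols and reduced products of dihydrotestosterone, was at 11.66, 10.95 and 11.43 in sham, 9.76, 11.53 and 12.48 in BPH, and 11.96, 11.74 and 11.50 in BPH+ghrelin. The groups overlapped, and the BPH arrays spanned the range of all others. Cyp26b1, which degrades retinoic acid, was at 5.14, 6.40 and 5.56 in sham, 5.65, 6.46 and 7.15 in BPH, and 7.56, 7.21 and 6.77 in BPH+ghrelin. It was higher in BPH+ghrelin than in sham without overlap (1.48, SE 0.44, adjusted p 0.0874; 0.0412 without sham 2). Cyp51, which demethylates lanosterol in cholesterol synthesis, gave 0.53 in the same comparison (SE 0.14, adjusted p 0.0617; 0.021 to 0.0428 in 4 other settings). Cyp27a1, a hydroxylase of sterols, gave 0.73 in BPH against sham (adjusted p 0.127), with 0.96 without sham 1 (adjusted p 0.0393) and 0.42 without sham 2. Cyp11a1, which starts steroid synthesis, was well above background on 3 of 9 arrays.

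The aryl hydrocarbon-inducible Cyp1 genes were dim. Cyp1a1 was at 3.99, 2.97 and 3.59 in sham, 3.63, 2.96 and 1.42 in BPH, and 2.30, 2.30 and 2.15 in BPH+ghrelin, where it was not well above background on any array. Cyp1b1 was well above background only on 2 BPH arrays. Of 5 Cyp3 genes, only Cyp3a9 was tested, at 4.29, 4.67 and 4.02 in sham and 4.86, 5.23 and 5.59 in BPH (0.90, SE 0.35, adjusted p 0.156). The direction turned with scan as a block (-0.18).

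Of 74 other genes of these pathways, 64 were tested. In BPH against sham, 1 rose and 3 fell, in BPH+ghrelin against BPH, 1 rose and 4 fell, and in BPH+ghrelin against sham, 3 rose and 8 fell, beside 4.33%, 1.48% and 6.3% of all features that changed in either direction. The falls in BPH included enzymes that make the donors used by the conjugating members: Papss2, which makes active sulfate, fell (log2 fold change -1.72, adjusted p 0.00701), and so did Ugp2, which makes UDP-glucose, the precursor of UDP-glucuronate (-0.87, adjusted p 0.0182). Of 5 donor synthesis genes tested there, 2 were higher and 3 lower (median -0.27). Cbr1, which is not among them, also fell in BPH compared to sham (-1.85, adjusted p 0.011). Glutathione supply genes gave 0 changes of 7 tested in each comparison (limma). Their median was 0.10 in BPH against sham, 0.29 in BPH+ghrelin against BPH and 0.50 in BPH+ghrelin against sham. Of the flavin monooxygenases, another family that oxidises drugs, Fmo2 fell in BPH+ghrelin compared to BPH (-1.01, adjusted p 0.039).

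Mean levels of cell type markers also differed between the groups. Of 7 seminal vesicle and coagulating gland genes, Svs1 was not well above background on any array. In BPH against sham, 2 of 6 tested were higher and 4 lower (median -4.45), of which 3 fell. The list had a mean log2 signal of 7.41 to 8.29 on sham, 4.15 to 6.39 on BPH and 3.50 to 5.24 on BPH+ghrelin arrays. Prostate secretory genes had means of 11.9 to 12.0 on sham, 10.6 to 11.4 on BPH and 10.5 to 11.1 on BPH+ghrelin arrays, but 9 of 13 tested genes were higher in BPH than in sham (median 0.06, 1 rose and 2 fell) and 6 of 13 in BPH+ghrelin (median -0.03, 4 fell). Immune cell genes ranged from 7.06 to 7.34 on BPH and from 6.37 to 6.42 on BPH+ghrelin arrays (6 of 7 tested lower, of which 2 passed the test). Fibroblast genes ranged from 9.97 to 10.2 on BPH and from 9.33 to 9.81 on BPH+ghrelin arrays (9 of 10 lower, of which 2 passed the test), and 10 of 10 were higher in BPH than in sham (median 0.38). Of 9 smooth muscle genes tested, 8 had lower signals in BPH+ghrelin (against BPH, median -0.49, 1 passed the test). Adipocyte genes had mean log2 signals of 4.54, 6.73 and 5.96 on sham 1 to 3, of 6.61, 6.36 and 6.03 on BPH 1 to 3, and of 4.01, 6.01 and 6.30 on BPH+ghrelin 1 to 3. Members with the same order of arrays within each group included Gsta1, Gsta3, Gsta6, Sult1a1, Cyp11b3 and Cyp2b3. Of these, Gsta6 was called lower in BPH than in sham. The order has sham 3, BPH 2 and BPH+ghrelin 2 in the middle, as did 74.0%, 71.8% and 69.4% of 21477 probes. Matches are therefore common on these arrays. The share of all features with the full order was not counted, so the matches do not link these members to adipocytes. The part of these markers in the differences of the enzyme genes was not tested. In whole tissue, fewer cells of a type and less RNA per cell cannot be told apart.

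**Figure D5:**
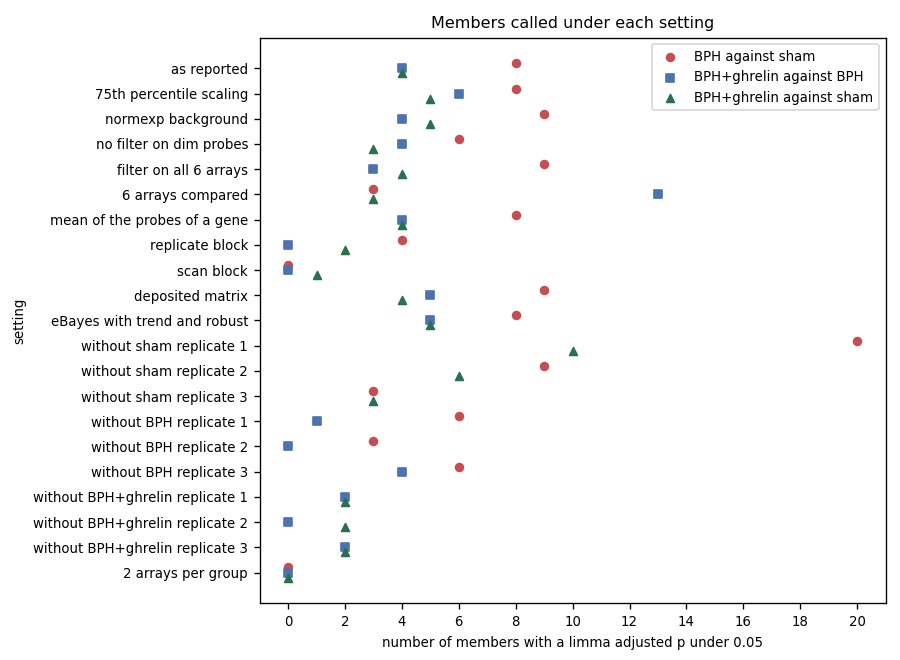
Number of member genes with an adjusted p under 0.05 (horizontal axis, limma) in each comparison under each processing setting or with 1 array left out (vertical axis). In BPH against sham, the count ranged from 3 to 20 when 1 array was left out, compared to 8 with all arrays.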

How the data were processed

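The authors deposited the output of Agilent's Feature Extraction software (version 11.0.1.1) for 9 one-colour arrays, in which the processed signal is a background-subtracted intensity, not normalized between arrays, and a matrix of log2 values deposited after quantile normalization by the authors (GeneSpring), used only as an alternative. Control and outlier spots were left out, spots of a probe were averaged, and log2 intensity was quantile normalized in R 4.3.3 with limma 3.58.1 and the package data.table (version 1.17.8). Accessions matched 17998 of 30356 probes to 15163 symbols (RefSeq, GRCr8). A gene was represented by its brightest tested probe, and genes with signals well above background on 3 or more of the 6 arrays in a comparison were tested with lmFit and eBayes over 9 arrays and Benjamini-Hochberg adjustment. The number of arrays limits the precision. With 3 arrays in each group, an exact permutation test (two-sided) has a smallest possible p of 0.1. On simulated data for BPH against sham (19185 genes), the limma fit recovered 36% of genes changed 2-fold and 81% of those changed 4-fold. The simulated noise was normal and independent between genes and arrays, without a scan effect, and only a small part of the genes was changed. These shares need not hold for the real arrays.

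Members and lists were chosen with earlier results of these data known. Named for each comparison and direction were up to 10 members, those called without overlap between the arrays first and then those at least 2-fold apart without overlap, besides a panel of enzymes. Further members were named by class after their values were seen, to complete a family. Columns of no sample: 0. Alternatives concerned scaling (75th percentile), background (normexp, offset 50, on median spot signals), filters, probes, the arrays fitted, blocks, the deposited matrix, eBayes options and each array left out. A figure legend of the study gives another ghrelin dose and route than its methods, which were followed here. Cyp19a1, Cyp2b1, Sult1e1, Ugt1a1 and Ugt2b17 were not analysed here.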

Additional observations from a re-analysis of the deposited data

How the results depend on the processing

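Counts of changed members depended on single arrays and on how the spread was estimated, as did the share of all features that changed. In BPH against sham (8 members), the count was 3 with only the 6 arrays compared (all features 0.921%) and 0 with scan as a block (0.0102%). In BPH+ghrelin against BPH (4 members), it was 13 with the 6 arrays compared (all features 10.7%) and 0 with scan as a block (0.0101%), and in BPH+ghrelin against sham (4 members) it was 1 with scan as a block (0.438%). With 1 array left out, the counts ranged from 3 to 20 (20 without sham replicate 1, all features 15.8%, and 3 without sham replicate 3 or BPH replicate 2, 0.818% and 0.609%), from 0 to 4 (0 without BPH replicate 2 or BPH+ghrelin replicate 2, 1 without BPH replicate 1, 2 without BPH+ghrelin replicate 1 or 3, all features 0.0152% to 0.4%) and from 2 to 10 (10 without sham replicate 1, all features 8.61%, and 2 without any 1 BPH+ghrelin replicate, 1.17% to 2.88%). Without the 3 arrays that lie between the others of their group, an alternative chosen after seeing the data, the counts were 0, 0 and 0, with fewer arrays tested; the cause of the other shifts was not tested. With replicate number as a block, the counts were 4, 0 and 2 (all features 1.24%, 0.0861% and 2.4%). Where limma's count was 0, 7 to 14 members had an unadjusted p under 0.05. The labels do not say that the numbers pair the samples, and deviations of same-numbered arrays correlated at -0.15 to 0.30. With 75th percentile scaling, the median over all features in BPH against sham moved from 0.04 to -0.09, 44.4% instead of 57.9% of the members at least 2-fold apart were higher in BPH than in sham, and 50% instead of 25% of the called members were higher in BPH+ghrelin than in BPH. The direction turned for Cyp4a8 in BPH against sham (0.41), Gsta3 in BPH+ghrelin against sham (0.13) and Gstm4 in BPH+ghrelin against BPH (0.20) when probes of 1 gene were averaged, for Gstm4 (0.17) and Cyp3a9 in BPH against sham (-0.18) with scan as a block, and for Gstm4 with 1 array left out (range -0.37 to 0.10, above 0 without BPH replicate 1 or BPH+ghrelin replicate 3); the cause was not tested beyond the disagreement of probes. Of the 16 calls, 6 were kept with replicate number as a block, 16 with the deposited matrix, 15 with 75th percentile scaling and 14 with normexp. Only 10 were kept with the 6 arrays compared, 1 with scan as a block, and 0 without the 3 arrays that lie between the others. The size of differences of dim probes depends on the background correction.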
